A study of Mus musculus with 48 samples.

Results

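The long noncoding RNAs of the brain described here were chosen by their gene symbols: Meg3, Rian, Mirg, Malat1, Neat1, Miat, Snhg11, Snhg14 and Kcnq1ot1. They are 9 of the 54331 genes in the deposited tables, and each symbol matched 1 gene. The study sequenced RNA of mouse retinal ganglion cells, whose axons leave the retina for 2 brain targets, the lateral geniculate nucleus (LGN) and the superior colliculus (SC), and asked which RNAs are carried in those axons, translated there and lost over time. EU libraries hold newly made RNA that took up 5-ethynyl uridine (EU) injected into the eye and was captured by click chemistry. Axon-TRAP libraries hold RNA bound to ribosomes that were purified through a tag. The 48 libraries fall into 15 groups, with totals between 2558141 and 48263706 estimated counts.

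The SC groups were fmr1ko mice at postnatal day 14 (P14) with 3 axon-TRAP and 3 EU libraries, and sarm1ko mice with an axotomy and a 7-day chase after P14 with 3 EU libraries. Wild-type naïve SC gave 3 axon-TRAP and 3 EU libraries at P10, 3 EU libraries after a 4-day chase from P10, 5 axon-TRAP and 5 EU libraries at P14, and 3 EU libraries at 8 weeks. Wild-type LGN at P14 gave 3 axon-TRAP and 2 EU libraries. Eye cells at P14 came from wild-type retinal ganglion cells taken by immunopanning with EU capture (3 libraries) or without it (3 libraries), and from sorted (FACS) cells of fmr1ko (3 libraries) and wild-type mice (3 libraries). The EU protocol pooled the SC of 3 animals. The labels name no line or promoter behind the ribosome tag, and they do not say that the libraries of a group came from separate pools, so p-values measure the spread between these libraries, which may be technical. Wild-type P14 SC libraries carry 1 of 2 series of title codes. Libraries 3 to 5 share theirs with the other SC groups and enter the comparisons with them, and libraries 1 and 2 share theirs with the LGN libraries.

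Meg3, Rian and Mirg lie in a row on the imprinted Dlk1-Dio3 domain, where the maternal chromosome makes noncoding RNAs and the paternal one makes coding genes such as Dlk1 and Rtl1. Rian hosts C/D box small nucleolar RNAs and Mirg hosts microRNAs. Malat1 gathers at nuclear speckles beside splicing factors, Neat1 is the scaffold of paraspeckles, and Miat (Gomafu) forms its own nuclear spots in neurons. Snhg11 and Snhg14 are hosts of small nucleolar RNAs, Snhg14 runs antisense to Ube3a, and Kcnq1ot1 is the long antisense RNA that silences its imprinted domain. Most of these RNAs are known to stay in the nucleus.

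On GRCm38 and GENCODE M21, Meg3 lies at chr12:109541001-109571726, Rian at chr12:109603940-109661716 and Mirg at chr12:109729764-109749460, all on the plus strand. Malat1 (chr19:5795690-5802672) and Neat1 (chr19:5824708-5845478) are neighbours on the minus strand. Miat lies at chr5:112213228-112229395 and Snhg14 at chr7:59307924-59975759, both on the minus strand. Kcnq1ot1 lies at chr7:143203458-143296549 on the minus strand as 1 transcript of 93092 nt, and Snhg11 lies at chr2:158375638-158386145 on the plus strand with the biotype protein coding in that annotation. The strand setting of the counting is not given in the sources used here, so reads of Snhg14 and Ube3a, or of Kcnq1ot1 and Kcnq1, cannot be told apart where they overlap.

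The ends of Malat1 and Neat1 are shown because the study measured polyadenylated RNA and the transcripts of these 2 genes end in different ways. Both genes are known to end, after cleavage by RNase P, in an A-rich tract that folds into a triple helix in place of a tail, while the short form of Neat1 ends at an ordinary poly(A) signal. The lines give sequence from the GENCODE M21 transcripts (GRCm38, chr19, minus strand, 5′ to 3′). Capitals mark the tract AAAAAGCAAAA in the first pair and the poly(A) signal AATAAA in the second pair, both searched on the transcript strand.
Malat1-201, bases 6602 to 6721: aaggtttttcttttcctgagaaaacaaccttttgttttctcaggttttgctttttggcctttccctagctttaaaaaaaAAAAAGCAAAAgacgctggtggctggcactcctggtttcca
Neat1-201, bases 20682 to 20771: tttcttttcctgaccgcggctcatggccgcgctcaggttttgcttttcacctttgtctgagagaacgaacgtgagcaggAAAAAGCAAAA
Malat1-201, bases 6884 to 6983: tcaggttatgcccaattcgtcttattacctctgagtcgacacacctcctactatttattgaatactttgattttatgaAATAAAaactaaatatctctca
Neat1-202, bases 2945 to 3004: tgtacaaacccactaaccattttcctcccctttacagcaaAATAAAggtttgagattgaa
The letters of the tract were taken from the last bases of annotated Neat1-201 (20771 nt), so that transcript stops at it by definition. Annotated Malat1-201 (6983 nt) holds the same letters and runs on for 292 bases past them, with a poly(A) signal near its end. AAAAAGCAAAA stands in the last 300 bases of 118 of 131058 annotated transcripts (0.09%), and AATAAA in those of 46376 (35.4%). The tract of Malat1-201 begins before its last 300 bases, so Malat1-201 is not among the 118, and Neat1-201, the source of the letters, is. A match describes letters and not a site in use.

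Several libraries stand apart, and calls are also given without them. Axon-TRAP library 2 of the fmr1ko group correlated with sorted eye cells (r = 0.9 over 8354 genes) more than with its own group (0.194), and its 104600 CPM of rod photoreceptor markers compare with 31.54 and 50.16 CPM in the other 2 libraries of that group. EU library 1 of the immunopanned cells also correlated with sorted eye cells (0.87), library 1 of the immunopanned cells without capture with its own group at only 0.148, and 8-week EU library 3 with P14 EU libraries (0.882) more than with its own group (0.415). Fmr1 goes against the label in EU libraries, where it had 9.14, 4.61 and 12.6 CPM in EU libraries labelled fmr1ko, against 1.19, 1.56 and 0.43 CPM in wild-type P14 EU libraries 3 to 5. Fmr1 stood at 0 and 4.937 CPM in wild-type P14 EU libraries 1 and 2, the latter inside the range of the libraries labelled fmr1ko. In axon-TRAP libraries labelled fmr1ko it had 0.105, 10.6 and 1.85 CPM, against 2.13, 3.46 and 8.94 CPM in wild-type libraries 3 to 5, so libraries 1 and 3 lay below and library 2 above every one of them. In sorted cells it had 23.1, 3.501 and 4.58 CPM with the fmr1ko label, against 26.4, 16.7 and 7.62 CPM in the wild type, with overlap. Gene totals cannot show whether a disrupted transcript is still made, so the text speaks of libraries labelled fmr1ko. Sarm1 had 3.73, 3.82 and 2.84 CPM in sarm1ko libraries, against 22.9, 49.3 and 24.2 CPM in wild-type P14 EU libraries 3 to 5, without overlap. Wild-type P14 EU libraries 1 and 2 had 1.718 and 16.02 CPM of Sarm1, so library 1 lay below the sarm1ko libraries.

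The noncoding RNAs were low in wild-type SC axon-TRAP libraries and high in EU libraries, and in libraries 3 to 5 at P14 and at P10 Neat1 was the member with the smallest fitted gap. Together the 9 genes took between 0.002446% and 0.01858% of the counts in the 5 wild-type P14 axon-TRAP libraries, against 1.184% to 3.362% in the 5 EU libraries. Levels are CPM, the counts scaled by library size with TMM factors over all libraries, and fold changes are from edgeR's quasi-likelihood test of libraries 3 to 5 against each other, with a call at an adjusted p under 0.05 over 16277 genes. In that test 8 of 9 members were lower in axon-TRAP and 0 were higher, where 8.55% of all tested genes were called lower and 5.73% higher. The levels of all 9 did not overlap between captures, as for 37.2% of all tested genes. The median log2 difference was −5.46 over the members and −0.007 over all tested genes.

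**Figure D1:**
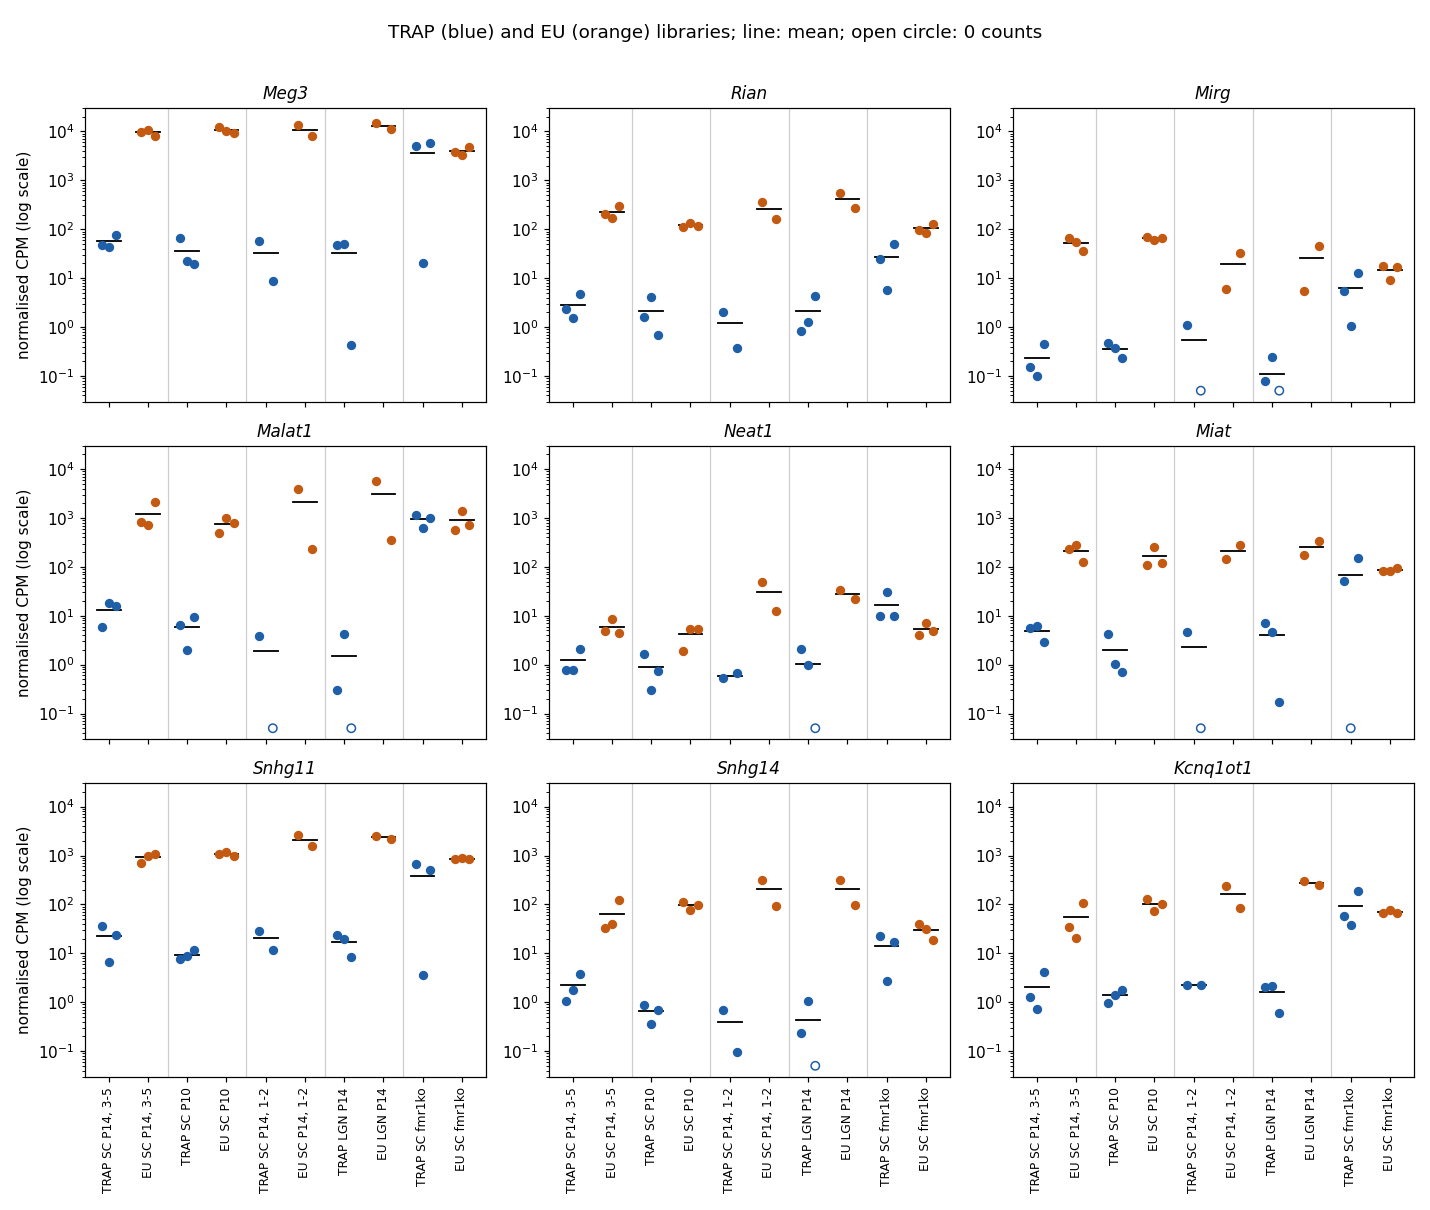
Level of each of the 9 RNAs (CPM, log axis) in axon-TRAP libraries (blue) and EU libraries (orange) of SC at P14 (libraries 3 to 5), SC at P10, SC at P14 (libraries 1 and 2), LGN at P14 and SC labelled fmr1ko; each point is a library, lines are group means and open circles are libraries with 0 counts. Meg3 reaches at most 77.15 CPM in wild-type axon-TRAP libraries and at least 8083 CPM in wild-type EU libraries at P10 and P14, while in 2 of 3 axon-TRAP libraries labelled fmr1ko it lies at 4996 and 5711 CPM.

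Of the Dlk1-Dio3 RNAs, Meg3 had 47.97, 43.82 and 77.15 CPM in axon-TRAP libraries 3 to 5, against 9552, 10910 and 8271 CPM in the EU libraries. Every EU library was far above every axon-TRAP library, and the fitted gap was 175-fold (log2 −7.45 ± 0.46 SE, adjusted p = 8.9e-05). Rian had 2.318, 1.551 and 4.742 CPM against 204, 170 and 301.8 CPM (log2 −6.32 ± 0.55, adjusted p = 0.0005). Mirg had only 5, 3 and 16 counts in these axon-TRAP libraries (0.1545, 0.09899 and 0.4543 CPM), against 67.59, 54.33 and 35.62 CPM in EU libraries (log2 −7.79 ± 0.70, adjusted p = 0.0005). For all 3 RNAs the lowest EU library lay well above the highest axon-TRAP library.

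Malat1, the speckle RNA, had 5.811, 18.25 and 15.96 CPM in axon-TRAP libraries, against 836.8, 707.2 and 2133 CPM in EU libraries (log2 −6.57 ± 0.65, adjusted p = 0.00081). The groups lay far apart, although EU library 5 held far more Malat1 than EU libraries 3 and 4. Neat1, its neighbour, had 0.7727, 0.7919 and 2.101 CPM (25, 24 and 74 counts) in axon-TRAP libraries, against 4.78, 8.452 and 4.494 CPM in EU libraries. These levels did not overlap, and their gap did not pass the test (log2 −2.31 ± 0.81, adjusted p = 0.08). Neat1 was called lower with DESeq2, with all 5 wild-type libraries and without EU library 5. Miat had 5.687, 6.137 and 2.925 CPM against 227.7, 274.4 and 125.9 CPM (log2 −5.46 ± 0.49, adjusted p = 0.0005).

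The host and antisense RNAs showed the same direction. Snhg11 had 35.73, 6.797 and 23.74 CPM in axon-TRAP libraries, against 703.8, 968.7 and 1067 CPM in EU libraries (log2 −5.40 ± 0.61, adjusted p = 0.0018). Snhg14 had 1.051, 1.782 and 3.776 CPM against 32.98, 38.95 and 120.3 CPM (log2 −4.89 ± 0.70, adjusted p = 0.0036). Kcnq1ot1 had 1.298, 0.7259 and 4.06 CPM against 35.24, 20.49 and 108.3 CPM (log2 −4.77 ± 0.83, adjusted p = 0.0073). For both Snhg14 and Kcnq1ot1, library 5 was the highest of its 3 libraries in each capture.

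Markers of other cells were present in both captures, and some lists differed between them. Summed oligodendrocyte markers reached 6133 to 17750 CPM in these axon-TRAP libraries and 10450 to 14460 CPM in the EU libraries, astrocyte markers 2154 to 3636 against 2005 to 3301 CPM, and microglia markers 417.2 to 870.2 against 182 to 309.4 CPM. Microglia markers were higher in each axon-TRAP library, and thalamus markers were lower in each, at 52.89 to 79.71 CPM against 160.6 to 464.6 CPM. GABA neuron markers summed to 221 to 426.4 CPM against 103.8 to 233.5 CPM, and retinal ganglion cell markers to 565.6 to 1206 CPM against 941.4 to 1378 CPM. Their part in the results was not tested, and in such bulk libraries fewer cells of a type and less RNA per cell cannot be told apart.

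Per length, the order of the RNAs differed between captures. In the deposited TPM of EU libraries 3 to 5, Meg3 (2152 ± 682 TPM, SD, n = 3) and Malat1 (1370 ± 458 TPM) led, followed by Snhg11 (786.5 ± 193 TPM), Snhg14 (201.3 ± 166 TPM), Rian (172 ± 66.6 TPM) and Mirg (95.84 ± 43.0 TPM). Miat had 32.47 ± 11.5 TPM, and Neat1 (1.778 ± 1.57 TPM) and Kcnq1ot1 (0.772 ± 0.653 TPM) came last. In axon-TRAP libraries 3 to 5, Malat1 (33.03 ± 21.8 TPM), Snhg11 (22.12 ± 14.5 TPM), Meg3 (13.03 ± 5.91 TPM) and Snhg14 (10.8 ± 10.7 TPM) lay within each other's spread, and the other 5 averaged under 4 TPM.

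At P10, before eye opening, the gap was of the same kind. The test called 8 of 9 members lower and 0 higher in axon-TRAP libraries, where 11% of 15733 tested genes were called lower and 6.64% higher, with a median log2 difference of −6.96 over the members and −0.075 over all genes. Meg3 had 65, 22.22 and 19.41 CPM in axon-TRAP libraries, against 12490, 10340 and 9431 CPM in EU libraries (log2 −8.38 ± 0.65, adjusted p = 0.00012). Malat1 had 6.462, 2.014 and 9.359 CPM against 499.2, 985 and 789.4 CPM (log2 −7.12 ± 0.64, adjusted p = 0.0003), and Mirg had 14, 6 and 5 counts against 68.05, 60.86 and 67.65 CPM (log2 −7.59 ± 0.50, adjusted p = 7.2e-05). All 9 pairs of groups stood apart, as for 38.9% of all genes.

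Among the rest at P10, Snhg11 averaged 9.402 ± 2.22 CPM in axon-TRAP and 1089 ± 107 CPM in EU libraries (SD, n = 3 each; log2 −6.96 ± 0.44, adjusted p = 7.2e-05), and Snhg14 0.6501 ± 0.264 CPM and 95.04 ± 17.7 CPM (log2 −7.27 ± 0.50, adjusted p = 7.2e-05). Kcnq1ot1 averaged 1.374 ± 0.403 CPM in axon-TRAP and 101 ± 26.9 CPM in EU libraries (log2 −6.31 ± 0.48, adjusted p = 0.00012). Rian and Miat were lower by log2 −5.92 ± 0.66 (adjusted p = 0.00095) and −6.46 ± 0.75 (adjusted p = 0.0011). Neat1 was again the member that missed the threshold, with 1.675, 0.3052 and 0.7413 CPM in axon-TRAP libraries, against 1.921, 5.255 and 5.415 CPM in EU libraries (log2 −2.32 ± 0.91, adjusted p = 0.1).

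The gap between captures was compared between the ages in 1 model. The lowest adjusted p-values were those of Snhg14 (difference of the log2 gaps, P14 minus P10, 2.32 ± 0.78, adjusted p = 0.38) and Snhg11 (1.53, adjusted p = 0.42). None of the 9 members passed edgeR's quasi-likelihood test, which called 0% of 18660 genes, with 2056 at an unadjusted p under 0.05. DESeq2 and limma called 0 members as well. A gap that differs between the ages was therefore not shown, and similar gaps were not shown either.

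The second code series gave the same direction with fewer libraries. In SC libraries 1 and 2 at P14, Meg3 had 56.24 and 8.813 CPM in axon-TRAP, against 13400 and 8083 CPM in EU libraries (log2 −8.47 ± 1.33, adjusted p = 0.017). With 2 libraries a capture, 5 of 9 members (Meg3, Rian, Snhg11, Snhg14 and Kcnq1ot1) were called lower, where 0.114% of 15795 genes (18 genes) were called lower. Besides Meg3, the called log2 differences were −7.83 ± 1.18 for Rian (adjusted p = 0.015), −6.77 ± 1.07 for Snhg11 (0.017), −9.05 ± 1.31 for Snhg14 (0.013) and −6.25 ± 1.03 for Kcnq1ot1 (0.023). Malat1 had 3.78 and 0 CPM in axon-TRAP libraries, against 3959 and 229.5 CPM in EU libraries, and its log2 difference of −10.23 ± 2.04 had an adjusted p of 0.072. Mirg (−5.19 ± 2.03), Neat1 (−5.74 ± 1.53) and Miat (−6.60 ± 1.56) had adjusted p-values of 0.31, 0.19 and 0.14. All 9 members lay apart between captures, as did 51.4% of genes.

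In the LGN, the thalamic target of the same axons, 7 of 9 members were called lower in axon-TRAP and 0 higher, where 0.972% of 16561 genes were called lower and 0.175% higher. Meg3 had 48.7, 50.07 and 0.4232 CPM in axon-TRAP libraries, against 14710 and 11060 CPM in EU libraries (log2 −8.80 ± 1.51, adjusted p = 0.037). Snhg11 had 24.04, 19.48 and 8.21 CPM against 2516 and 2210 CPM (log2 −7.28 ± 0.74, adjusted p = 0.017). Malat1 had 0.3092, 4.219 and 0 CPM against 5760 and 360.6 CPM (log2 −11.11 ± 1.92, adjusted p = 0.037), and the pair of EU libraries lay far from each other. Rian (log2 −7.78 ± 0.93, adjusted p = 0.017), Miat (−6.20 ± 1.16, adjusted p = 0.048), Snhg14 (−8.95 ± 1.31, adjusted p = 0.019) and Kcnq1ot1 (−7.60 ± 0.82, adjusted p = 0.017) were lower as well. Mirg (−7.80 ± 1.80, adjusted p = 0.059) and Neat1 (−4.93 ± 1.64, adjusted p = 0.087) were not called. When axon-TRAP library 1 was left out, 0 members and 0 of 15640 genes were called. All 9 members stood apart between captures, as for 52.2% of genes. Some marker sums stood apart as well, while others overlapped. Those of retinal ganglion cells overlapped, at 867.7 to 1372 CPM in LGN axon-TRAP and 515.5 to 1203 CPM in LGN EU libraries. So did those of thalamus (304 to 433.7 and 234.9 to 885.3 CPM) and of midbrain and colliculus (11.77 to 22.09 and 15.17 to 46.72 CPM). Oligodendrocyte markers summed to 23650 to 34360 CPM in LGN axon-TRAP and 9226 to 10680 CPM in LGN EU libraries, microglia markers to 445.3 to 800.5 CPM and 38.18 to 145 CPM, and GABA neuron markers to 101.8 to 175.7 CPM and 366 to 1228 CPM. Their part in the results was not tested.

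Between SC (libraries 1 and 2) and LGN, no member passed a test that called 0 genes at all. EdgeR's quasi-likelihood test called 0 members in EU libraries (0% of 15448 genes, 470 at an unadjusted p under 0.05), with log2 differences between −0.73 and 0.18, and 0 members in axon-TRAP libraries (0% of 15551 genes, 408 at an unadjusted p under 0.05). Kcnq1ot1 alone did not overlap, as for 32.1% of genes in EU and 17% in axon-TRAP libraries. It had 241.9 and 86.14 CPM in SC EU libraries, against 308 and 245.5 CPM in LGN EU libraries, and 2.29 and 2.239 CPM in SC axon-TRAP libraries, against 2.087, 2.137 and 0.5925 CPM in LGN axon-TRAP libraries. DESeq2 and limma called 0 members in both, and with so few libraries this does not show that the regions are alike. Over all genes, DESeq2 called 89 of 19363 in EU and 64 of 18563 in axon-TRAP libraries. The test of the region difference in the gap between captures called 0% of 18348 genes, 0 members included, with 265 genes at an unadjusted p under 0.05 and 0 members called by DESeq2 and limma.

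**Figure D2:**
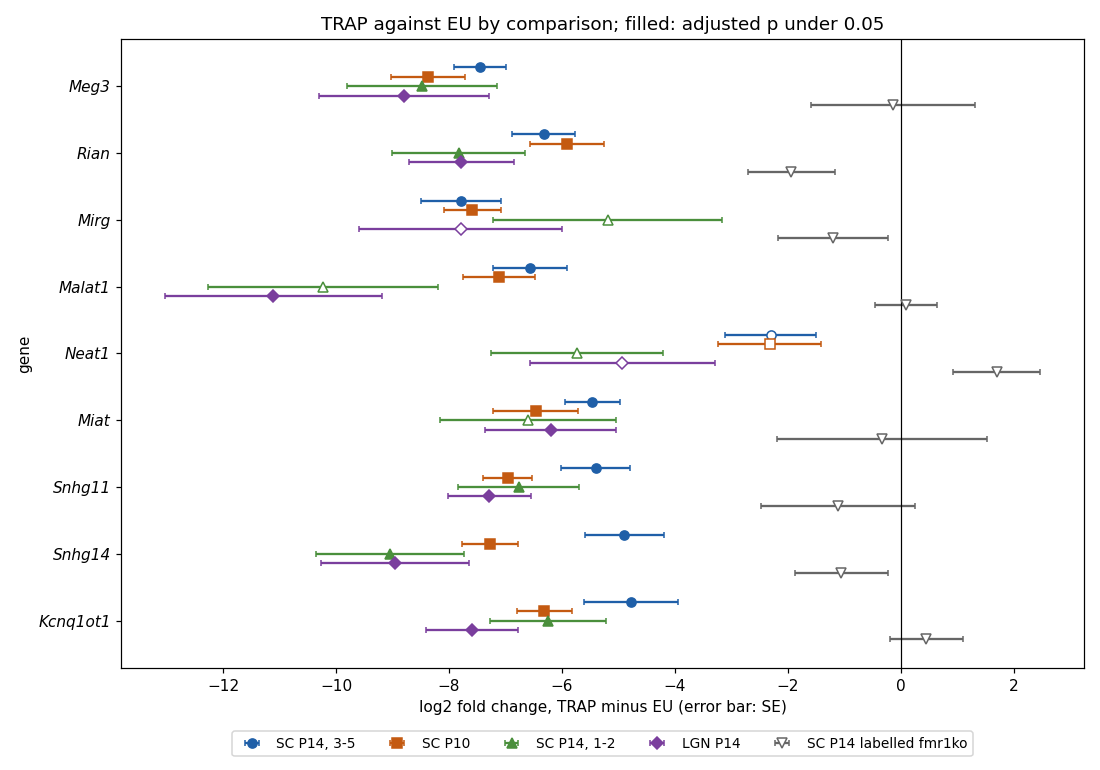
Log2 difference of each RNA, axon-TRAP minus EU, with its standard error, in 5 comparisons: SC at P14 (libraries 3 to 5), SC at P10, SC at P14 (libraries 1 and 2), LGN at P14 and SC labelled fmr1ko; filled points have an adjusted p under 0.05. In the 4 wild-type comparisons all points lie below 0, with Neat1 nearest to 0 at −2.31 in SC at P14, and in the libraries labelled fmr1ko the points run from −1.94 (Rian) to 1.70 (Neat1) with none filled.

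In SC libraries labelled fmr1ko, the gap between captures was not found. Meg3 had 4996, 20.42 and 5711 CPM in axon-TRAP libraries labelled fmr1ko, against 3724, 3335 and 4893 CPM in EU libraries labelled fmr1ko (log2 −0.13 ± 1.46). Malat1 had 1175, 614.5 and 1020 CPM against 567.8, 1393 and 728.1 CPM (log2 0.09 ± 0.56), and Kcnq1ot1 had 58.04, 37.72 and 187.2 CPM against 67.02, 76.42 and 66.93 CPM (log2 0.46 ± 0.65). The captures overlapped for these genes, with axon-TRAP library 2, the library with the rod markers, low in Meg3 and not in Malat1. EdgeR's quasi-likelihood test called 0 members and 0% of 16575 genes, with 1994 genes at an unadjusted p under 0.05. DESeq2 called 0 members as well, where it called 678 of 21760 genes higher and 1311 lower. Limma called 0 members, where it called 54 of 16050 genes on log2(TPM + 1) and 50 on log2(TPM + 0.1).

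Only Rian, Neat1 and Snhg11 did not overlap between captures in the libraries labelled fmr1ko, as for 24.9% of all genes. Rian had 24.12, 5.817 and 50.04 CPM in axon-TRAP against 95.01, 85.77 and 130.7 CPM in EU libraries (log2 −1.94 ± 0.77, adjusted p = 0.39). Neat1 had 9.935, 30.97 and 9.743 CPM against 3.979, 7.11 and 4.822 CPM (log2 1.70 ± 0.77, adjusted p = 0.46), and it was higher in each axon-TRAP library than in each EU library. Snhg11 had 656.2, 3.572 and 509.5 CPM against 831, 871.9 and 855.7 CPM (log2 −1.11 ± 1.36). Without axon-TRAP library 2, 0 members were called and Meg3 gave log2 0.44.

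The gap between captures differed between libraries labelled fmr1ko and wild type for 5 members. In the test of that difference, Meg3 (7.20 ± 1.68 log2 units, adjusted p = 0.034), Rian (4.27 ± 0.97, adjusted p = 0.031), Mirg (6.49 ± 1.24, adjusted p = 0.024), Malat1 (6.54 ± 0.89, adjusted p = 0.011) and Kcnq1ot1 (5.11 ± 1.17, adjusted p = 0.033) were called higher in libraries labelled fmr1ko, where 2.49% of 18561 genes were called higher. Neat1 (3.87 ± 1.11, adjusted p = 0.06), Snhg14 (adjusted p = 0.073), Snhg11 (adjusted p = 0.13) and Miat (adjusted p = 0.15) were not called. Without axon-TRAP library 2 labelled fmr1ko, 8 members were called, where 6.82% of 19738 genes were called higher, with Meg3 at 7.92 ± 0.49 (adjusted p = 3.6e-06). Without EU library 1 or EU library 3 labelled fmr1ko, 0 members were called, where 0.0202% of genes were called in each case. Without EU library 2 of that group, or without wild-type axon-TRAP library 3, 4 or 5 or wild-type EU library 3 or 4, 1 member (Malat1) was called. In those settings 0.0352% to 0.131% of genes were called. With the code digit as a block 0 were called.

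Compared between the fmr1ko label and the wild type within axon-TRAP, the levels of all 9 members were fitted higher in libraries labelled fmr1ko, by log2 2.72 to 6.16 (median 4.16, against 0.048 over all genes). EdgeR's quasi-likelihood test called 0 of them and 0% of 16115 genes, with 2830 genes at an unadjusted p under 0.05. DESeq2 called 8 members higher, where it called 1804 of 21721 genes higher and 1375 lower. Limma on log2(TPM + 1) called 1 member (Malat1) higher, where it called 91 of 15944 genes higher and 21 lower. A total of 5 members (Rian, Mirg, Malat1, Neat1 and Kcnq1ot1) lay higher in each of the 3 libraries labelled fmr1ko than in each of wild-type libraries 3 to 5, as for 12.9% of all genes. Malat1 was at 1175, 614.5 and 1020 CPM against 5.811, 18.25 and 15.96 CPM (log2 6.16 ± 0.75, adjusted p = 0.079). Without axon-TRAP library 2, Meg3 (log2 6.58 ± 0.42, adjusted p = 0.010), Malat1 (6.37 ± 0.57, adjusted p = 0.016), Miat (4.37 ± 0.62, adjusted p = 0.031), Snhg11 (4.72 ± 0.68, adjusted p = 0.031) and Kcnq1ot1 (5.92 ± 0.91, adjusted p = 0.036) were called higher, where 1.3% of 17261 genes were called higher. Libraries 1 and 3 of this group correlated with EU libraries at 0.724 and 0.675 and with axon-TRAP libraries at 0.702 and 0.67 over all genes. Their marker sums, at 31.54 and 50.16 CPM for rods, 232.1 and 388.6 CPM for thalamus, 226 and 148.2 CPM for microglia and 1581 and 1488 CPM for astrocytes, lay outside those of wild-type libraries 3 to 5 (3.307 to 3.691, 52.89 to 79.71, 417.2 to 870.2 and 2154 to 3636 CPM). The part of that likeness and of these markers in the results was not tested.

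Within EU libraries, 0 members were called between the fmr1ko label and the wild type, where 1.16% of 16546 genes were called. Meg3, Rian, Mirg and Miat lay lower in each of the 3 libraries labelled fmr1ko than in wild-type libraries 3 to 5, as for 15% of all genes. Meg3 averaged 3984 ± 811 CPM in EU libraries labelled fmr1ko and 9578 ± 1320 CPM in wild-type libraries (SD, n = 3 each; log2 −1.24 ± 0.32, adjusted p = 0.077). Mirg averaged 14.7 ± 4.70 CPM and 52.51 ± 16.1 CPM (log2 −1.80 ± 0.40, adjusted p = 0.058), Rian 103.8 ± 23.7 CPM and 225.2 ± 68.4 CPM (log2 −1.09 ± 0.31, adjusted p = 0.089) and Miat 86.32 ± 6.90 CPM and 209.3 ± 76.0 CPM (log2 −1.25 ± 0.32, adjusted p = 0.077). DESeq2 called these 4 members lower, where it called 933 of 21345 genes lower and 1575 higher. In sorted eye cells, 0 of 8 tested members were called between the same labels (0.0396% of genes), with 1904 genes at an unadjusted p under 0.05. In 0 of the 8 did the groups lie apart, as for 22.3% of genes. DESeq2 called 0 members and 1472 of 20442 genes. Limma called 0 members, and 50 of 13947 genes on log2(TPM + 1) and 36 on log2(TPM + 0.1).

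With age, no member passed the test in EU libraries of the SC. Between P14 and P10, 0 members were called, where 2.5% of 16262 genes were called. DESeq2 called 0 members and 1445 of 21429 genes. Limma called 0 members, and 390 of 15400 genes on log2(TPM + 1) and 294 on log2(TPM + 0.1). Only Rian did not overlap, with 204, 170 and 301.8 CPM at P14 and 111.7, 136.5 and 118.6 CPM at P10 (log2 0.91 ± 0.30, adjusted p = 0.13), as for 25.7% of all genes. Without P14 EU library 5, Snhg14 (log2 −1.37, adjusted p = 0.017) and Kcnq1ot1 (−1.83, adjusted p = 0.012) were called lower at P14, where 7.02% of genes were called lower. In axon-TRAP libraries, 0 members and 0% of 15752 genes were called between P14 and P10, with 2290 genes at an unadjusted p under 0.05. DESeq2 called 0 members and 796 of 19609 genes. Limma called 0 members, and 1 of 13547 genes on log2(TPM + 1) and 2 on log2(TPM + 0.1). There Snhg14 alone did not overlap (log2 1.72 ± 0.87, adjusted p = 0.39), as for 22% of genes.

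At 8 weeks, Neat1 had 138.1, 52.67 and 65.52 CPM in EU libraries, against 4.78, 8.452 and 4.494 CPM at P14. Every 8-week library was above every P14 library 3 to 5, and 52.67 CPM is also above the 48.58 CPM of P14 library 1. The log2 difference of 3.87 ± 0.71 did not pass edgeR's quasi-likelihood test (adjusted p = 0.49), which called 0% of 16942 genes with 1496 at an unadjusted p under 0.05. DESeq2 called Neat1 higher at 8 weeks (3.88, adjusted p = 4.8e-05), where it called 956 of 22864 genes higher, and limma called 0 members. Meg3 had 5958, 4369 and 2657 CPM at 8 weeks, against 9552, 10910 and 8271 CPM at P14 (log2 −1.12 ± 0.69, adjusted p = 0.65), and with Mirg these 3 members did not overlap, as for 12.3% of all genes. Without 8-week library 3, Neat1 (4.04 ± 0.57, adjusted p = 0.013) and Miat (−2.03 ± 0.48, adjusted p = 0.026) were called, where 17.9% of 18734 genes were called. Malat1 was spread over 1675, 6324 and 113.6 CPM at 8 weeks.

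The chase asked how much of the RNA labelled at P10 was present 4 days later. Meg3 had 11980, 10090 and 11190 CPM after the 4-day chase, against 12490, 10340 and 9431 CPM at P10 (log2 0.05 ± 0.33, adjusted p = 0.96). The groups overlapped, and CPM gives shares of the captured RNA, so it does not show whether the amount fell. Rian averaged 265.8 ± 91.5 CPM after the chase and 122.3 ± 12.8 CPM at P10 (SD, n = 3 each; log2 1.13 ± 0.30, adjusted p = 0.15), and Kcnq1ot1 203.7 ± 66.4 CPM and 101 ± 26.9 CPM (log2 1.02 ± 0.32, adjusted p = 0.17). Both lay higher in each chase library than in each P10 library, as for 13% of all genes. The test called 0 members and 0.00597% of 16746 genes, with 3041 genes at an unadjusted p under 0.05. DESeq2 called Rian higher, where it called 421 of 21922 genes higher, and limma called 0 members.

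**Figure D3:**
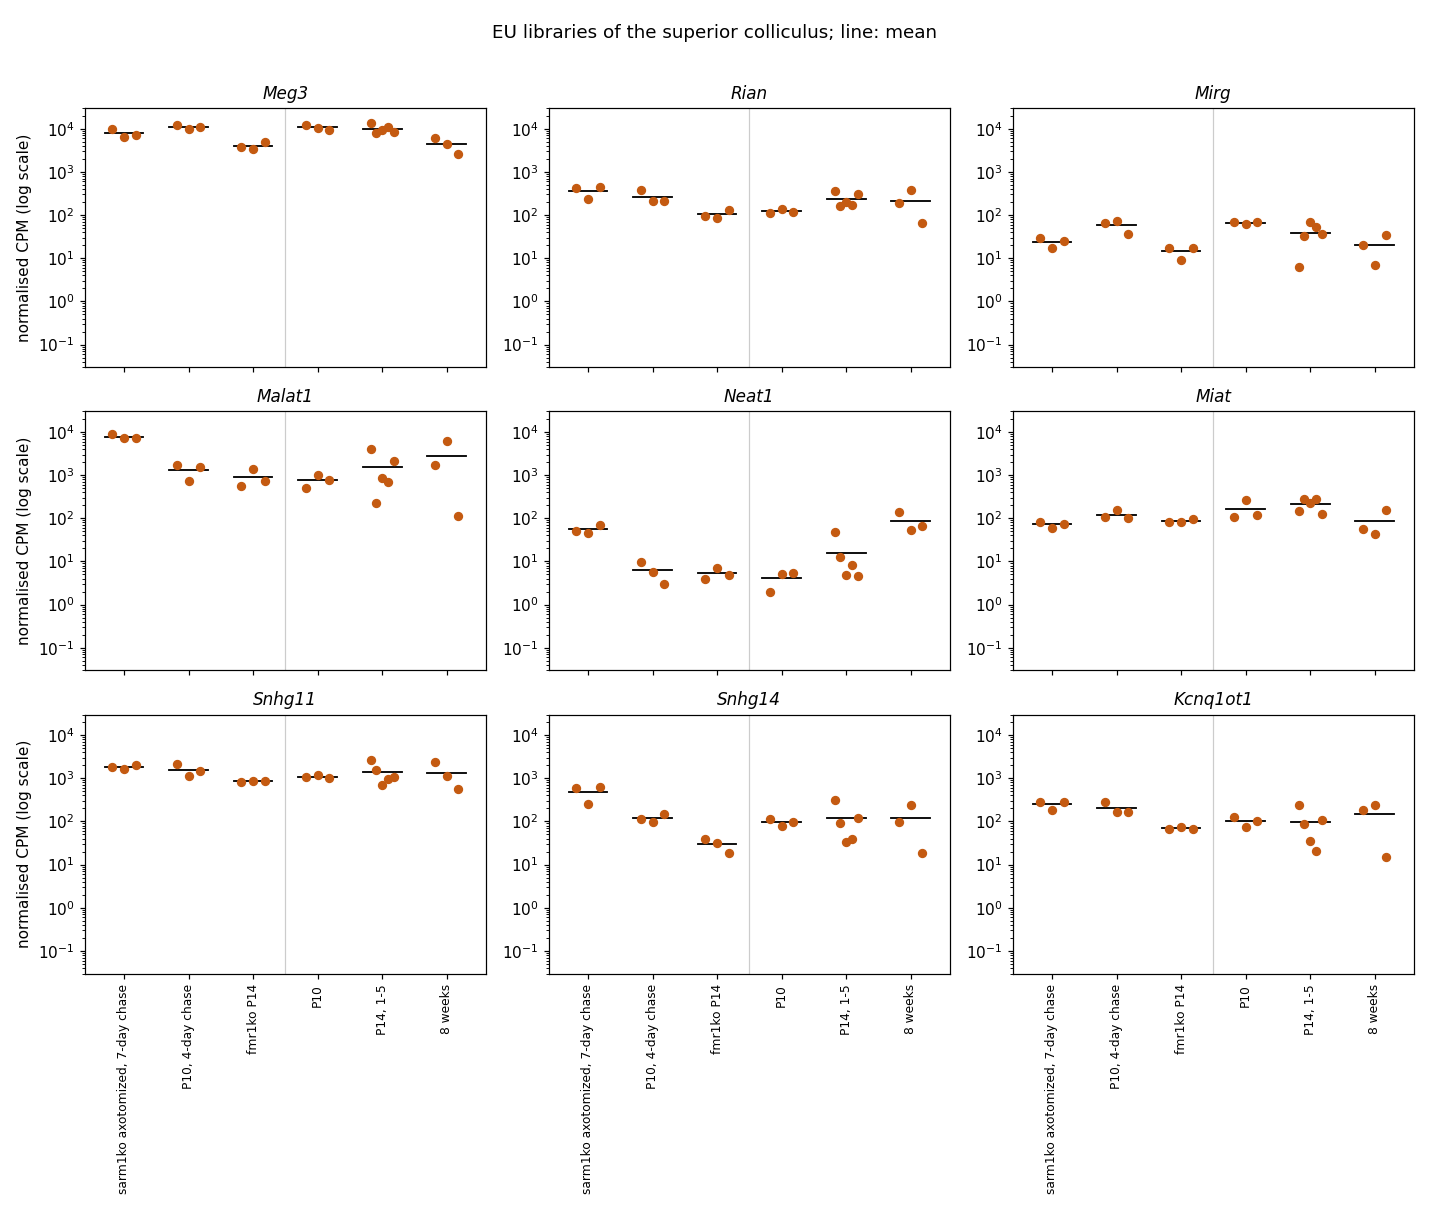
Level of each RNA (CPM, log axis) in SC EU libraries: sarm1ko with axotomy and 7-day chase, 4-day chase from P10 and labelled fmr1ko at P14, then P10, P14 (all 5 libraries) and 8 weeks in the wild type; each point is a library and lines are group means. Malat1 lies at 7184 to 8764 CPM in the sarm1ko libraries, and P14 libraries 1 and 2 (3959 and 229.5 CPM) are wider apart than libraries 3 to 5.

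The sarm1ko libraries differ from the wild-type P14 EU libraries in genotype, axotomy, the 7-day chase and age at once, which cannot be told apart. Sarm1 is the enzyme that drives degeneration of cut axons, so a cut axon without it lasts longer. Of the members, 5 were called higher and 1 lower in sarm1ko libraries than in P14 libraries 3 to 5, where 16.7% of 17171 genes were called higher and 20.8% lower. Malat1 had 8764, 7348 and 7184 CPM in sarm1ko libraries, against 836.8, 707.2 and 2133 CPM at P14 (log2 2.75 ± 0.45, adjusted p = 0.0026). Neat1 had 50.89, 46.51 and 71.23 CPM against 4.78, 8.452 and 4.494 CPM (log2 3.32 ± 0.42, adjusted p = 0.0015), and Snhg14 had 603.7, 254.4 and 614.8 CPM against 32.98, 38.95 and 120.3 CPM (log2 3.04 ± 0.55, adjusted p = 0.0036). These 3 did not overlap with P14 libraries 3 to 5, and 7 of 9 members did not overlap, as for 57.8% of all genes. Over all wild-type P14 EU libraries, Neat1 and Snhg14 did overlap with the sarm1ko libraries. Neat1 in P14 library 1, at 48.58 CPM, lay above its 46.51 CPM in sarm1ko library 2, and Snhg14 in P14 library 1 lay above its 254.4 CPM there.

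Kcnq1ot1 averaged 251.5 ± 62.1 CPM in sarm1ko libraries and 54.67 ± 47.0 CPM at P14 (SD, n = 3 each; log2 2.30 ± 0.55, adjusted p = 0.0099), and Snhg11 1820 ± 181 CPM and 913 ± 188 CPM (log2 1.08 ± 0.29, adjusted p = 0.017). Miat was the member called lower, with 72.01 ± 12.9 CPM and 209.3 ± 76.0 CPM (log2 −1.47 ± 0.35, adjusted p = 0.01). The Dlk1-Dio3 RNAs were not called, with Meg3 at log2 −0.22 ± 0.34 (adjusted p = 0.62), Rian at 0.81 (adjusted p = 0.087) and Mirg at −1.04 ± 0.38 (adjusted p = 0.054). When all 5 wild-type P14 libraries were used, 0 members were called, where 964 of 17999 genes were called, against 6427 of 17171 with libraries 3 to 5. Malat1 then stood at log2 2.37 (adjusted p = 0.065), Neat1 at 1.93 (adjusted p = 0.12) and Snhg14 at 2.12 (adjusted p = 0.072). The TMM factors that scale the levels were 0.6428, 1.143 and 0.4396 in sarm1ko libraries, against 1.158, 1.119 and 0.9734 in P14 libraries 3 to 5. The part of this scaling in the levels was not tested. With other size factors, 5 members were called higher and 1 lower, where 3105 of 17171 genes were called higher and 3538 lower. With the length trend removed, 2 members were called higher and 3 lower, where 2355 of 17171 genes were called higher and 4254 lower. With limma on log2(TPM + 1), 2 members were called higher and 2 lower, where 1026 of 16091 genes were called higher and 3756 lower. On deposited TPM, Snhg11 was lower in sarm1ko libraries (log2 −0.52), and with a length trend removed Kcnq1ot1 was lower (log2 −0.28).

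Against the wild-type 4-day chase, the sarm1ko libraries were again higher in Malat1 (log2 2.70 ± 0.44, adjusted p = 0.001), Neat1 (3.34 ± 0.42, adjusted p = 0.00021) and Snhg14 (2.20 ± 0.37, adjusted p = 0.0013). Malat1 had 8764, 7348 and 7184 CPM in sarm1ko libraries and 1714, 747.3 and 1516 CPM after the 4-day chase, and Neat1 had 50.89, 46.51 and 71.23 CPM and 9.958, 5.627 and 2.996 CPM. Mirg was called lower, with 24.31 ± 6.33 CPM in sarm1ko libraries and 58.95 ± 19.3 CPM after the chase (SD, n = 3 each; log2 −1.13 ± 0.34, adjusted p = 0.028). So 3 members were called higher and 1 lower, where 9.9% of 17991 genes were called higher and 11.5% lower. Both comparisons share the sarm1ko libraries. With the length trend removed, 3 members were called higher and 4 lower, where 1471 of 17991 genes were called higher and 2014 lower. With limma on log2(TPM + 1), 1 member was called higher and 1 lower, where 458 of 16986 genes were called higher and 4135 lower. On log2(TPM + 1), Malat1 (log2 0.54, adjusted p = 0.63) and Snhg14 (1.54, adjusted p = 0.11) were not called. Markers of GABA neurons, which the SC holds, summed to 386.4 to 476.8 CPM in sarm1ko libraries, 246.3 to 358.4 CPM after the 4-day chase and 103.8 to 233.5 CPM at P14, and retinal ganglion cell markers to 372.7 to 490.1, 789.4 to 1104 and 941.4 to 1378 CPM. Other lists of local cells went the other way against P14. In the same order, midbrain and collicular markers summed to 48.4 to 88.1, 61.64 to 125.8 and 113.5 to 194.7 CPM, and astrocyte markers to 1202 to 1664, 1277 to 1830 and 2005 to 3301 CPM. The part of these cells in the results was not tested.

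The eye libraries set the RNAs in the axon targets beside those of retinal cells. In SC EU libraries 3 to 5, 5 of 9 members (Meg3, Rian, Mirg, Miat and Snhg14) were called higher than in EU-captured immunopanned cells and 0 lower, where 10.7% of 15540 genes were called higher and 11.3% lower. Meg3 had 9552, 10910 and 8271 CPM in the SC, against 121.7, 241.3 and 304.8 CPM in the immunopanned cells (log2 5.36 ± 0.60, adjusted p = 0.0023). Malat1 had 836.8, 707.2 and 2133 CPM against 390.2, 470 and 477.2 CPM, which did not overlap and did not pass (log2 1.40 ± 0.54, adjusted p = 0.097). The neuronal RNA Miat averaged 209.3 ± 76.0 CPM in the SC and 4.687 ± 6.89 CPM in the cells (SD, n = 3 each; log2 5.41 ± 1.43, adjusted p = 0.028), and Neat1 5.909 ± 2.21 CPM and 20.31 ± 15.5 CPM (log2 −1.86 ± 1.08, adjusted p = 0.25). Rian (5.92 ± 0.98, adjusted p = 0.0059), Mirg (6.56 ± 1.33, adjusted p = 0.012) and Snhg14 (4.05 ± 0.99, adjusted p = 0.023) were the other called members. Without EU library 1 of the immunopanned cells, 6 members were called, where 12.4% of 16687 genes were called higher, with Snhg11 added (1.86 ± 0.37, adjusted p = 0.016), and 3 were called without SC EU library 4 or 5.

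Cell markers moved with this comparison. Oligodendrocyte markers summed to 10450 to 14460 CPM in the SC EU libraries and to 26.84 to 161.5 CPM in the immunopanned cells, midbrain markers to 113.5 to 194.7 CPM and 0 to 0.7619 CPM, and rod markers to 4.362 to 12.19 CPM and 12480 to 115600 CPM. Markers of the named cell type, the retinal ganglion cell, summed to 941.4 to 1378 CPM in the SC and to 37.21 to 771.1 CPM in the immunopanned cells. Their part in the result was not tested.

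**Figure D4:**
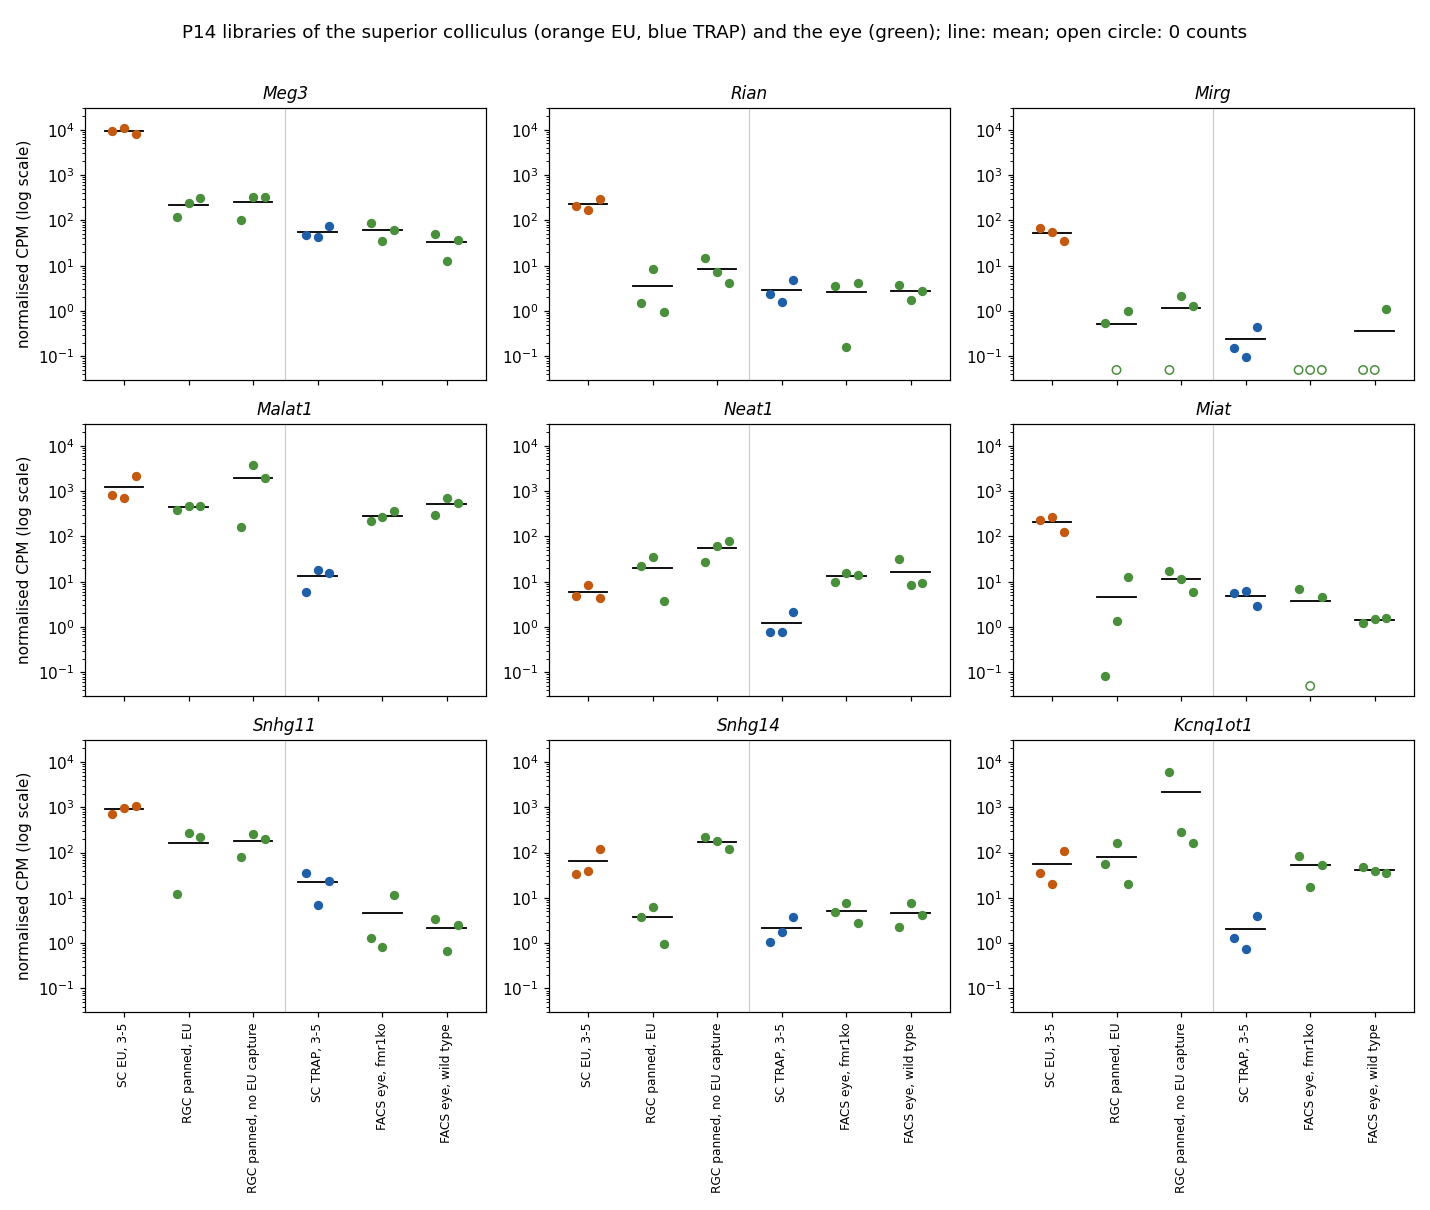
Level of each RNA (CPM, log axis) in SC EU libraries 3 to 5 and in immunopanned eye cells with and without EU capture, then in SC axon-TRAP libraries 3 to 5 and in sorted eye cells of the fmr1ko label and of the wild type; each point is a library and lines are group means. Meg3 is lower in all eye groups (at most 334.9 CPM) than in the SC EU libraries, while Malat1 in sorted wild-type eye cells (294.2 to 719.5 CPM) lies above SC axon-TRAP libraries (5.811 to 18.25 CPM).

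SC axon-TRAP libraries 3 to 5 were also set beside sorted wild-type eye cells. Malat1 had 5.811, 18.25 and 15.96 CPM in axon-TRAP, against 294.2, 719.5 and 554.6 CPM in sorted cells (log2 −5.25 ± 0.58, adjusted p = 0.00093). Neat1 averaged 1.222 ± 0.762 CPM in axon-TRAP and 16.45 ± 13.2 CPM in sorted cells (log2 −3.74 ± 0.85, adjusted p = 0.011), and Kcnq1ot1 2.028 ± 1.78 CPM and 40.97 ± 6.76 CPM (SD, n = 3 each; log2 −4.30 ± 0.72, adjusted p = 0.0042). Snhg11 was the member called higher, at 22.09 ± 14.5 CPM in axon-TRAP and 2.193 ± 1.42 CPM in sorted cells (log2 3.36 ± 0.88, adjusted p = 0.019). Meg3 overlapped, with 47.97, 43.82 and 77.15 CPM against 49.48, 12.39 and 37.68 CPM (log2 0.79 ± 0.53, adjusted p = 0.26). Of 8 tested members, 3 were called lower and 1 higher, where 22.1% of 17186 genes were called lower and 21.9% higher. Without axon-TRAP library 3 or 5, Snhg11 was not called, and without axon-TRAP library 4 Neat1 was not called. Sorted cells held 66630 to 165300 CPM of rod markers, against 3.307 to 3.691 CPM in axon-TRAP, and 13.25 to 36.96 CPM of retinal ganglion cell markers, against 565.6 to 1206 CPM. The part of the rods in the result was not tested.

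In immunopanned cells, EU capture was compared with no capture. Snhg14 had 3.852, 6.381 and 0.9398 CPM with capture, against 221.8, 180.8 and 120.4 CPM without (log2 −6.24 ± 1.46, adjusted p = 0.41). The groups did not overlap, as for 18.8% of all genes, but edgeR's quasi-likelihood test called 0 of 8 tested members and 0% of 13360 genes, with 1183 at an unadjusted p under 0.05. DESeq2 called Snhg14 lower with capture, where it called 1157 of 23049 genes lower. Limma called Meg3 higher with capture on log2(TPM + 1), where it called 1743 of 13597 genes higher. Kcnq1ot1 had 54.99, 160.7 and 19.81 CPM with capture and 6043, 280.3 and 160.4 CPM without, and the 6043 CPM belong to library 1, which had 1.342 CPM of lens markers, against 1088000 and 993900 CPM in libraries 2 and 3. Without captured library 1, 0 members and 0 genes were called (Snhg14 at log2 −6.20, adjusted p = 0.53), and without uncaptured library 1, 0 members and 25 genes were called (Snhg14 at −5.35, adjusted p = 0.12, and Kcnq1ot1 at −1.51, adjusted p = 0.64). A sum above the library size can arise because TMM scaling changes the effective size of a library.

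Related genes were counted from 4 lists, to be read beside the shares of all tested genes. In axon-TRAP against EU libraries of SC, those shares were 5.73% higher and 8.55% lower at P14, and 6.64% and 11% at P10. Of other long noncoding RNAs, 1 of 19 tested was higher and 7 were lower in axon-TRAP than in EU libraries of SC at P14 (median log2 −0.80), and at P10 0 of 19 were higher and 8 lower (−2.15). Ftx, a noncoding gene beside Xist, averaged 1.649 ± 0.171 CPM in P14 axon-TRAP and 34.45 ± 11.4 CPM in EU libraries (SD, n = 3 each; log2 −4.42 ± 0.51, adjusted p = 0.0018), and Mir124a-1hg, the host of a neuronal microRNA, 1.311 CPM and 75.45 CPM (log2 −5.88 ± 0.79, adjusted p = 0.0032). Gm26917 was lower by log2 −6.62 ± 0.81 at P14 (adjusted p = 0.0021), and Rmst, a noncoding RNA of neural development, by −5.24 ± 0.83 at P10 (adjusted p = 0.0037). Of other small nucleolar RNA hosts, 0 of 13 were higher and 1 lower at P14 (Snhg20, log2 −3.53, adjusted p = 0.015) and again 0 and 1 at P10. Their medians (−0.41 and −0.92) lie between those of all genes and of the members.

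Coding genes of the same imprinted domains were divided. At P14, 0 of 12 were higher and 2 lower in axon-TRAP, namely Rtl1 (log2 −4.51, adjusted p = 0.0087) and Dlk1 (1.718 ± 1.09 CPM in axon-TRAP and 17.28 ± 3.91 CPM in EU libraries, SD, n = 3 each; log2 −3.37, adjusted p = 0.011), both of the Meg3 domain, while the list's median was 0.79. At P10, 4 of 12 were higher, among them Ndn, which encodes necdin of the Snhg14 region (1795 ± 511 CPM in axon-TRAP and 403.2 ± 60.6 CPM in EU libraries; log2 2.04, adjusted p = 0.0055), and 1 was lower (Rtl1, log2 −6.92, adjusted p = 0.0047). Rtl1 lies antisense to noncoding transcripts of its domain, and without strand their reads cannot be told apart. Of proteins of speckles and paraspeckles, 1 of 17 was higher and 3 lower at P14, Sf3b1 (log2 −1.54, adjusted p = 0.013), Qk (−1.73, adjusted p = 0.018) and Srrm1 (−1.33, adjusted p = 0.031), and 3 were higher and 4 lower at P10. Around Meg3, 66 microRNA and 23 small nucleolar RNA genes of the domain were listed with 0 counts in all libraries.

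In sarm1ko libraries against P14, 16.7% of all tested genes were called higher and 20.8% lower. There the other long noncoding RNAs gave 6 higher and 2 lower of 21 tested, with Oip5os1 (Cyrano) at 116.9 ± 13.1 CPM in sarm1ko libraries and 17.84 ± 14.6 CPM at P14 (SD, n = 3 each; log2 2.80 ± 0.51, adjusted p = 0.0037). The speckle and paraspeckle proteins gave 4 higher and 0 lower of 17, with Matr3 (log2 2.26, adjusted p = 0.0063) and Son (2.41, adjusted p = 0.012) among them. Small nucleolar RNA hosts gave 2 higher (Gas5 at log2 2.76, adjusted p = 0.0063) and 3 lower of 13, and the coding genes of the imprinted domains 1 higher and 4 lower of 10. The one that was higher was Ube3a, a ubiquitin ligase, with 82.5, 63 and 94.1 CPM in sarm1ko libraries and 15.8, 14.4 and 39.2 CPM at P14 (log2 1.88 ± 0.43, adjusted p = 0.0086). It rose beside its antisense RNA Snhg14, and reads in their overlap cannot be told apart. Ndn (log2 −1.40) and Snrpn (−1.89, adjusted p = 0.0035), of the same region, fell.

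For the remaining comparisons, the shares of all tested genes called are given before the lists. Between LGN captures they were 0.175% higher and 0.972% lower, and in SC libraries 1 and 2 0.114% were lower. In SC EU libraries against immunopanned cells they were 10.7% and 11.3%. In SC axon-TRAP libraries against sorted cells they were 21.9% and 22.1%, and in sarm1ko libraries against the 4-day chase 9.9% and 11.5%. Between LGN axon-TRAP and EU libraries, 0 were higher and 2 lower of 20 other long noncoding RNAs, 0 and 1 of 11 coding genes of the imprinted domains (Rtl1, log2 −7.77 ± 1.46, adjusted p = 0.048), and 0 of 13 hosts and 0 of 17 speckle and paraspeckle proteins were called. In SC libraries 1 and 2, Rmst alone was called lower (log2 −6.09 ± 1.09, adjusted p = 0.042), and in libraries labelled fmr1ko 0 genes of the 4 lists were called. In SC EU libraries against EU-captured immunopanned cells, 2 of 22 other long noncoding RNAs were higher and 4 lower, with Tug1 at 1.557 CPM in the SC and 102.5 CPM in the cells (log2 −6.09 ± 0.88, adjusted p = 0.0039). There the hosts gave 0 higher and 5 lower of 13, led by Gas5 (log2 −5.47 ± 0.85, adjusted p = 0.0049), and the speckle and paraspeckle proteins 2 higher and 8 lower of 17. In SC axon-TRAP libraries against sorted eye cells, the coding genes of the imprinted domains gave 7 higher and 0 lower of 13, with Snrpn, a spliceosome protein gene, at 983.8 CPM in axon-TRAP and 39.57 CPM in sorted cells (log2 4.67 ± 0.45, adjusted p = 0.00056). The other long noncoding RNAs gave 4 higher and 8 lower of 22 there, the hosts 0 and 5 of 13, and the proteins 1 and 5 of 17. Between sarm1ko libraries and the 4-day chase, 2 of 22 other long noncoding RNAs were higher and 4 lower, 0 and 4 of 13 hosts, 1 and 1 of 12 coding genes of the domains (Ube3a, log2 1.24 ± 0.34, adjusted p = 0.017, and Snrpn, −0.93 ± 0.31, adjusted p = 0.043), and 2 and 1 of 17 proteins.

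The deposited counts and TPM together give the mean transcript length that the quantification assigned to each gene in each library, where a gene had at least 20 counts. It is approximate: for Kcnq1ot1, with 1 annotated transcript of 93092 nt, it came to 98887 to 105171 nt in SC EU libraries at P14. For Neat1 it was 2980 to 2985 nt in SC axon-TRAP libraries 3 to 5 at P14, against 3365 to 10956 nt in the 5 SC EU libraries. The annotated short form, Neat1-202, has 3004 nt and ends at the poly(A) signal shown above, and Neat1-201 has 20771 nt. Neat1 in these axon-TRAP libraries was thus assigned to about the length of the short form, from 25, 24 and 74 counts, and in the sarm1ko libraries the length was 3695 to 5110 nt, against 3038 to 3665 nt at 8 weeks.

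For Malat1 the implied length was 497 to 1116 nt in axon-TRAP libraries 3 to 5 and 1029 to 1661 nt in EU libraries 3 to 5, well under the 6983 nt of Malat1-201. The annotated transcripts Malat1-202, Malat1-203 and Malat1-204 (556, 485 and 656 nt) share every base with Malat1-201 in runs of at least 30, so their counts are an estimate of the quantification, and TPM of Malat1 depends on it. For Meg3 the implied length was 3351 to 8030 nt in the 5 axon-TRAP and 5945 to 8798 nt in the 5 EU libraries of SC at P14, and 6189 to 8030 nt in axon-TRAP libraries 3 to 5. Annotated forms include Meg3-206 (5971 nt) and Meg3-209 (14548 nt). In sorted wild-type eye cells it was 1002 to 1270 nt. Miat came to 9077 to 9592 nt in SC EU libraries at P14, about its longest annotated form of 9163 nt.

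**Figure D5:**
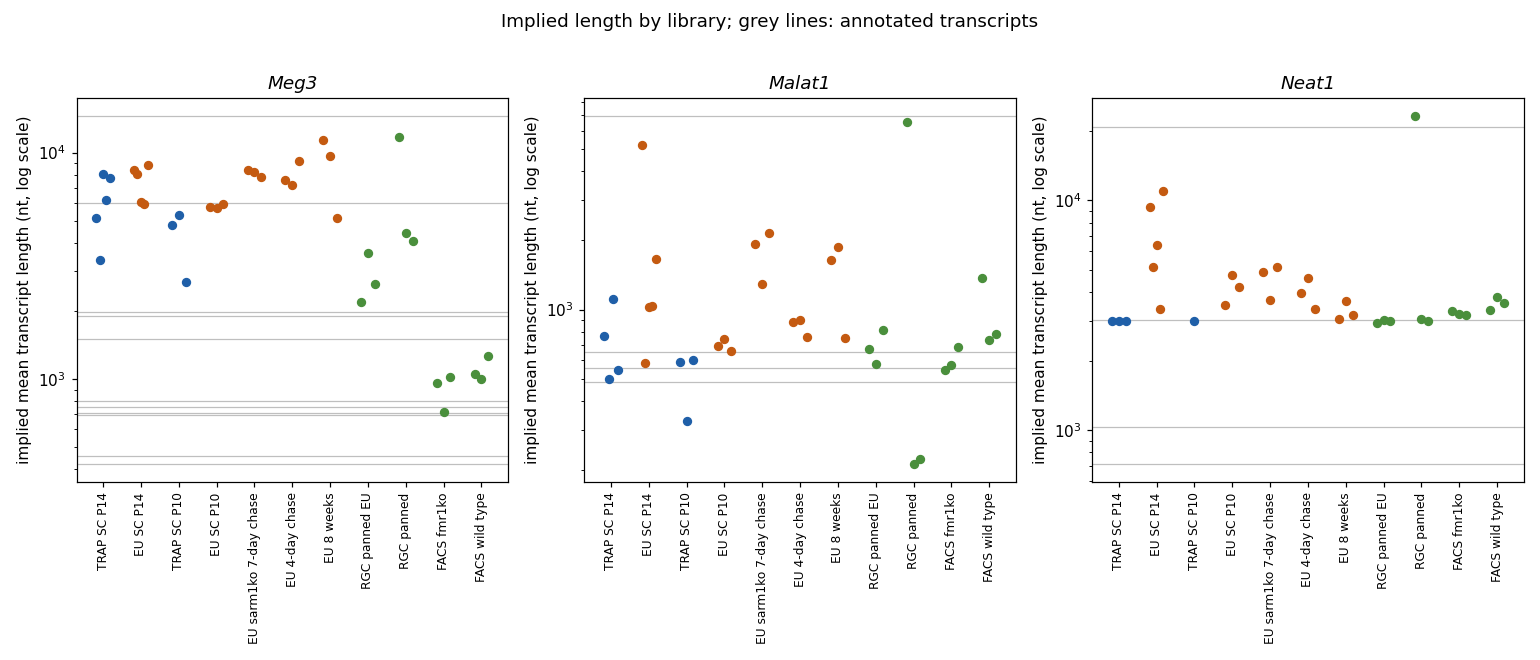
Mean transcript length (nt) implied by the deposited counts and TPM for Meg3, Malat1 and Neat1, by group; each point is a library with at least 20 counts and grey lines mark annotated transcripts. Neat1 lies at 2980 to 2985 nt in SC axon-TRAP libraries 3 to 5, near the 3004 nt of its short form, and Malat1 lies at 2148 nt or below in all SC EU libraries but P14 library 1 (5212 nt).

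Over all 15 groups, Meg3 was highest in LGN EU libraries (mean 12880 CPM), followed by the 4-day chase (11080 CPM), EU at P10 (10750 CPM), EU at P14 (10040 CPM over 5 libraries) and sarm1ko (7788 CPM), each overlapping the next. A break without overlap led to 8 weeks (4328 CPM), EU labelled fmr1ko (3984 CPM) and axon-TRAP labelled fmr1ko (3576 CPM), and the immunopanned cells without and with capture had 252.1 and 222.6 CPM. The lowest groups, from sorted cells labelled fmr1ko (60.56 CPM) to LGN axon-TRAP (33.07 CPM), overlapped each other. Malat1 was highest in sarm1ko libraries (7765 CPM), apart from the next group, LGN EU (3060 CPM), and lowest in wild-type axon-TRAP of SC at P14 (8.759 CPM), P10 (5.945 CPM) and LGN (1.509 CPM), which lay apart from every other group. Neat1 was highest at 8 weeks (85.43 CPM), in immunopanned cells without capture (56.75 CPM) and in sarm1ko libraries (56.21 CPM), which overlapped, and lowest in the same 3 axon-TRAP groups at 1.02 CPM or below.

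Across the 15 group means, as a description over groups that share libraries' depth and batch, the pattern of Meg3 on log2(CPM + 1) was most like that of Miat (Pearson r = 0.9825), Rian (0.9636), Mirg (0.9626) and Snhg11 (0.9565) among the members, and least like that of Neat1 (0.4244). Among the 8386 genes compared, members included, those outside the list most like Meg3 included C78859 (0.9732), 9530059O14Rik (0.9672), Pclo (0.931) and 9330162G02Rik (0.927). Malat1 was most like Kcnq1ot1 (0.9156), Snhg14 (0.8749) and Neat1 (0.8442) among the members, and like Gm37376 (0.9553), Senp7 (0.9548), Dop1a (0.9502), Phf20l1 (0.9496) and Cspp1 (0.9482) among the others.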

How the data were processed

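RNA was sequenced from EU-captured, axon-TRAP, immunopanned and sorted material on an Illumina NovaSeq after Nextera XT preparation, per the labels' protocols, which give the EU protocol for all samples. Salmon and mm10 are named in the submitters' processing notes. For both, the version was not given in the sources used here, nor were annotation release and strand setting. The authors deposited 1 table of estimated counts per gene and 1 table of TPM, scaled by the authors to the same sum in each library. Of 54331 gene IDs, 54097 matched GENCODE M21 (GRCm38), which gave symbols, positions and transcript sequences.

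The estimated counts were rounded, filtered with filterByExpr, scaled with TMM and tested in edgeR 4.0.16 (R 4.3.3) with the two-sided quasi-likelihood test. P-values had Benjamini-Hochberg adjustment over all tested genes, with a threshold of 0.05. Each comparison was fitted on its own groups, and differences between comparisons as interaction terms. The fits were also run on simulated counts, with the same spread set for every gene and no library that stands apart. This does not show how the test behaves on groups with such libraries. Levels are CPM scaled over all 48 libraries, given as mean ± SD, with log2 fold changes ± SE from the fits. Depth had a median of 22212787 counts. Alternatives were other size factors, no filter, DESeq2 1.42.0, limma 3.58.1 on log2(TPM + 1) and log2(TPM + 0.1), leaving out CT010467.1 and mitochondrially encoded genes, a length trend removed (lowess span 0.3), all 5 wild-type P14 libraries, a replicate block and each library left out. The implied transcript length is counts divided by TPM, scaled per library to genes with 1 transcript.

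The members and gene lists were chosen with earlier results of these data known. Genes named outside the members were taken from the 3 called genes of each list with the lowest p-values and, for likeness, from the highest correlations over group means among genes with a mean of at least 16 CPM. No replicates were found that agree within sampling noise. Some genes that these rules select are not reported here.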

Additional observations from a re-analysis of the deposited data

Results flagged for a closer look

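Neat1 in wild-type P14 EU library 1 of the SC stood far above the other 4 libraries of its group, at 48.58 CPM, against 12.49, 4.78, 8.452 and 4.494 CPM in libraries 2 to 5. Neat1 in wild-type P14 axon-TRAP library 5 stood above the other 4, at 2.101 CPM, against 0.5243, 0.6669, 0.7727 and 0.7919 CPM in libraries 1 to 4. Dixon's test at the 95% level was run on 18 sets of libraries, and 2 were past its critical value, which chance alone passes in about 1 of 20 groups.

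The gap between axon-TRAP and EU libraries differed between libraries labelled fmr1ko and wild-type P14 libraries for 5 members, each by an interaction term in edgeR's quasi-likelihood test. The log2 differences were 7.20 for Meg3, 4.27 for Rian, 6.49 for Mirg, 6.54 for Malat1 and 5.11 for Kcnq1ot1. Axon-TRAP library 2 labelled fmr1ko, with 104600 CPM of rod markers, enters these values, and the values without it are higher for all 5, at 7.92 for Meg3, 4.88 for Rian, 7.13 for Mirg, 6.91 for Malat1 and 5.63 for Kcnq1ot1.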

How the results depend on the processing

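The gap between axon-TRAP and EU libraries at P10 kept its direction and its calls for all 8 called members under every alternative that tested them and with each library left out. At P14 all values kept their direction as well. There 7 members were called with the length trend removed (2461 of 16277 genes called) and with limma (2263 and 2229 of 14832 genes). With DESeq2 (4467 of 21422 genes), with all 5 wild-type libraries (1379 of 15772 genes) and without EU library 5 (4062 of 17130 genes), 9 members were called. Counts of called members moved further elsewhere. Between SC axon-TRAP and EU libraries 1 and 2, they were 9 with DESeq2 (1394 of 19154 genes called) and 3 with limma on log2(TPM + 0.1) (17 of 16326 genes). Leaving out a library there, or an EU library in the LGN, leaves 1 library in a capture. Its spread is then assumed to be that of the other capture, so those counts are not given. In the LGN they were 0 without axon-TRAP library 1 (0 of 15640 genes), 5 without library 2 (109 of 15312 genes) and 7 without library 3 (153 of 15859 genes). Between 8 weeks and P14 they were 1 with no filter (418 of 28435 genes), 1 with DESeq2 (1033 of 22864 genes) and 0 to 2 with a library left out (0% to 17.9% of genes). Between the 4-day chase and P10 they were 2 with no filter (1055 of 27239 genes) and 1 with DESeq2 (979 of 21922 genes). Between P14 and P10 EU libraries, and in the difference of the gap between the ages, leaving out a library gave 0 to 2 and 0 to 1. Without P14 EU library 5, 2 and 1 members were called, where 2160 of 16664 and 214 of 19794 genes were called. Between sarm1ko and P14 libraries they were 0 with all 5 wild-type P14 libraries (964 of 17999 genes). Between sarm1ko and the 4-day chase they were 2 with limma on either pseudocount (4593 and 4408 of 16986 genes) and 7 with the length trend removed (3485 of 17991 genes). Between SC axon-TRAP libraries and sorted cells they were 3 to 4 with a library left out, where 29.6% to 48.1% of genes were called. For the fmr1ko label in EU libraries they were 4 with no filter, 4 with DESeq2, 2 and 1 with limma (606 and 542 of 14825 genes) and 1 with the length trend removed (417 of 16546 genes). With a library left out they were 0 to 4, with 4 and 3499 of 17572 genes called without wild-type EU library 5. For that label in axon-TRAP libraries they were 8 with DESeq2, 1 with limma on either pseudocount (112 and 118 of 15944 genes) and 4 with all 5 wild-type libraries (847 of 16787 genes). With a library left out they were 0 to 5, with 5 and 348 of 17261 genes called without library 2 labelled fmr1ko. For immunopanned cells with and without EU capture they were 1 with no filter (1176 of 28682 genes), 1 with DESeq2 (1189 of 23049 genes) and 1 with limma on log2(TPM + 1) (1747 of 13597 genes). For SC EU libraries against those cells they were 3 to 6 with a library left out, where 5.61% to 23.1% of genes were called. The difference of the gap between the fmr1ko label and the wild type gave 8 with DESeq2, 2 with limma on either pseudocount, 8 with all 5 wild-type libraries and 0 to 8 with a library left out (0 without EU library 1 or 3 labelled fmr1ko). With a library left out, 0.0202% to 14% of genes were called in that test. Counts over all genes changed as well. For the fmr1ko label in axon-TRAP libraries, DESeq2 called 3179 of 21721 genes, against 0 of 16115 in edgeR's quasi-likelihood test. For that label in EU libraries, no filter gave 1263 of 26834 and DESeq2 2508 of 21345, against 192 of 16546. With all 5 wild-type P14 libraries, sarm1ko against P14 gave 964 of 17999, against 6427 of 17171. The cause of these changes was not tested.

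Some single values changed sign. In the libraries labelled fmr1ko, axon-TRAP minus EU became 0.077 and 0.078 for Snhg14 with limma and −0.006 for Kcnq1ot1 with the length trend removed. With a library left out it ran from −0.656 to 0.44 for Meg3, −0.155 to 0.596 for Malat1, −1.733 to 0.242 for Miat and −0.537 to 0.824 for Kcnq1ot1. Between sarm1ko and P14 libraries, Snhg11 became −0.518 and −0.519 with limma, and Kcnq1ot1 −0.275 with the length trend removed.

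The digits of the title codes were not taken to pair the samples. In no comparison with 3 pairs did every same-numbered pair correlate over 0.1. Between SC and LGN, with 2 pairs, same-numbered libraries correlated at 0.343 in EU and 0.37 to 0.428 in axon-TRAP libraries, each best with its own number, a hint from the data and not from the design. There the block moved the called genes to 80 in EU and 29 in axon-TRAP libraries, against 0 and 0 without it, with 0 members in both. With the digit as a replicate block, the difference of the gap between the fmr1ko label and the wild type had 0 called members, Mirg in the LGN was called (log2 −7.12, adjusted p = 0.031), and Rian was added between sarm1ko and P14 libraries (0.78, adjusted p = 0.035). Counts limit Mirg and Neat1 in axon-TRAP libraries, where a library with 0 counts allows up to 3.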
